A study of Homo sapiens with 2 samples.

Results

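A set of 10 genes for secreted and mucosal proteins of the gut, pancreas and airway were followed in Huh7 cells, an established human hepatocellular carcinoma line. They were LYZ, LCN2, REG3A, REG1A, TFF1, TFF2, TFF3, SPINK1, MUC13 and AGR2, taken by symbol from a table of 58220 genes and 56558 symbols, in which each of the 10 had 1 row. They were picked with their values in these same libraries already known, so their differences are given as a description and carry no test. The study compared 1 library of Huh7 cells labelled as NEIL3 knockdown with 1 library of Huh7 cells labelled shGFP, a hairpin against green fluorescent protein that serves as a control. The sources used here do not say how NEIL3 was knocked down, or whether a pool or a clone was used. With 1 library in each group no difference has a replicate check, and "higher" and "lower" describe these libraries only.

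Several of these proteins belong to the chemical barrier of mucosal surfaces. Lysozyme cuts bacterial cell walls, lipocalin 2 withholds iron from bacteria by binding their siderophores, REG lectins bind bacteria or act on epithelial growth, and trefoil factors are small disulfide-knotted peptides released with mucus. SPINK1 inhibits trypsin, MUC13 is a mucin anchored in the cell membrane, and AGR2 is a disulfide isomerase of the endoplasmic reticulum that mucus-producing cells need. Healthy hepatocytes make little of most of them, whereas liver tumours can express several, SPINK1 and LCN2 among them.

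The target of the knockdown was read first. NEIL3, a DNA glycosylase, stood at 2.84 FPKM in the knockdown library and 5.34 FPKM in the shGFP library, a ratio of 0.53. It was lower by 1.5-fold or more on a log2(FPKM + 1) scale, as were 4.48% of the 14209 symbols with 1 FPKM or more in either library. Whether NEIL3 was reduced beyond the spread between libraries was not tested. FPKM is fragments scaled to transcript length and to library size, so levels of different genes can be set side by side per length. All 13 hepatocyte and liver tumour markers examined were measured, with ALB (albumin) at 1272 FPKM in the knockdown and 1346 FPKM in the shGFP library. Fragment totals are unknown. If library size was taken as the mapped total, the lowest values imply a knockdown library with 77.7% of the fragment number of the shGFP library. Mitochondrial transcripts took 26.3% of the FPKM sum in the knockdown library and 23.1% in the shGFP library. Rescaling without mitochondrial genes shifted log2 ratios by -0.03 before the pseudocount. Any other part of this difference in the results, and the part of the depth difference, was not tested.

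Most of the 10 genes were higher in the knockdown library, with ratios between 1.26 and 2.38 among the measured genes other than TFF1, at very unlike levels. Of 9 genes above the listing floor in both libraries, 8 had a ratio of knockdown to shGFP above 1, and TFF1 had a ratio of 0.97. The floor is the value of 1e-05 FPKM that the table gives undetected genes. Counts below use log2((knockdown + 1)/(shGFP + 1)), a scale with a pseudocount of 1 FPKM that understates the change of low genes, and cover symbols that reached 1 FPKM in either library, called measured here. On it 8 of the 10 genes were measured. Of these 5 were higher by 1.5-fold or more (LYZ, SPINK1, AGR2, REG3A and TFF3) and 0 were lower by as much, while 1, SPINK1, was higher by 2-fold or more and 0 were lower by 2-fold. Over all 14209 symbols measured, 4.55% were higher and 4.48% lower by 1.5-fold or more, and 1.34% were higher and 1.28% lower by 2-fold or more. The median log2 ratio was 0.75 over the 8 genes and 0.02 over all symbols. Because the genes were chosen on this contrast, nothing is read from that gap.

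**Figure D1:**
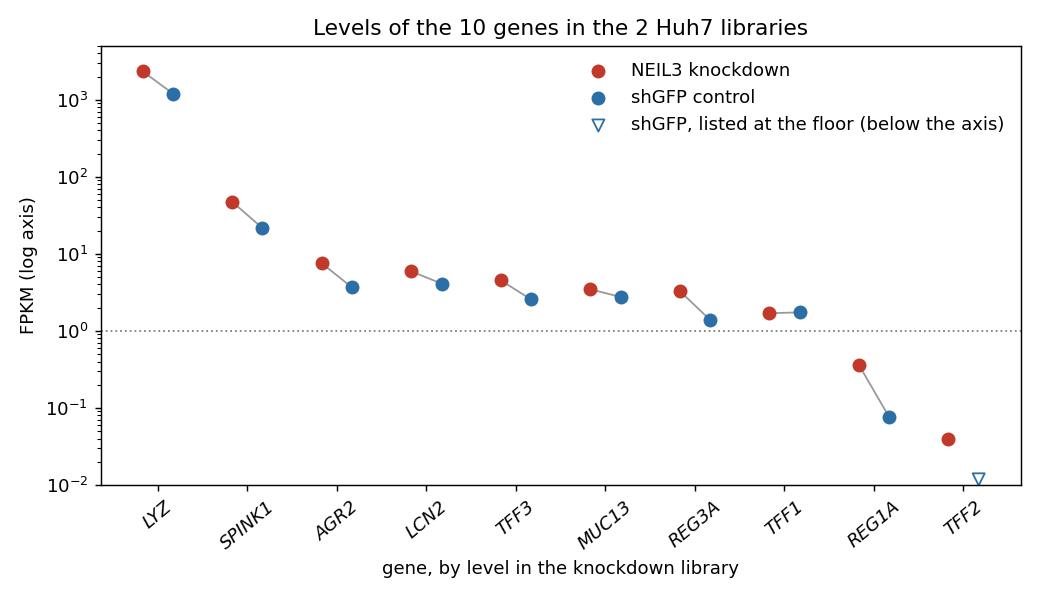
FPKM of each gene (log axis) in the NEIL3 knockdown library (red, left) and the shGFP library (blue, right), 1 library each, joined by a line. LYZ lies far above the others, at 2353 FPKM in the knockdown and 1199.7 FPKM in the shGFP library; TFF1 is the gene without a visible slope, and the open triangle marks TFF2, listed at the floor in the shGFP library.

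The antimicrobial proteins were led by lysozyme. LYZ (ENSG00000090382, GRCh38 chromosome 12, 69348341 to 69354234, plus strand) stood at 2353 FPKM in the knockdown library and 1199.7 FPKM in the shGFP library, a ratio of 1.96 and a log2 ratio of 0.97. It was among the most abundant transcripts of these cells, ranking 19 of 56558 symbols in the knockdown library and 34 in the shGFP library. Its share of the FPKM sum was 0.405% in the knockdown library and 0.219% in the shGFP library. LYZ made up 96.9% of the summed FPKM of the 10 genes in each library. Without it, the other 9 genes summed to 74.5 FPKM in the knockdown and 37.8 FPKM in the shGFP library, a ratio of 1.97, and most of that remainder was SPINK1.

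LCN2 (chromosome 9, 128149071 to 128153455, plus strand), the siderophore-binding lipocalin, differed less. Its level was 5.93 FPKM in the knockdown library and 4.11 FPKM in the shGFP library. The ratio was 1.44 and the log2 ratio with the pseudocount 0.44, under 1.5-fold on either scale. The C-type lectin REG3A (chromosome 2, 79157003 to 79159753, minus strand), which binds the peptidoglycan of Gram-positive bacteria, stood at 3.30 FPKM in the knockdown and 1.39 FPKM in the shGFP library. Its ratio of 2.38 was the largest among the 8 measured genes, though its log2 ratio with the pseudocount, 0.85, ranked behind those of SPINK1, LYZ and AGR2. REG1A (chromosome 2, 79120362 to 79123419, plus strand), a relative first described in pancreas, was at 0.365 FPKM in the knockdown and 0.0759 FPKM in the shGFP library. Both REG1A values lie where a few fragments decide the ratio, so its ratio of 4.80 carries little weight, and it was not counted. The near-identical REG1B, with which REG1A could share reads, was listed at the floor in both libraries, as was REG3G, the close relative of REG3A.

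The 3 trefoil genes sit side by side on chromosome 21, and their values in these libraries were unlike. At levels this low, in 1 library each, whether they differ from each other was not tested. TFF3 (42311667 to 42315651, minus strand), the trefoil factor of intestinal goblet cells, was higher, at 4.54 FPKM in the knockdown library and 2.56 FPKM in the shGFP library, a ratio of 1.78. TFF1 (42362282 to 42366594, minus strand), the gastric trefoil factor and a known oestrogen target, was level at 1.69 FPKM in the knockdown and 1.74 FPKM in the shGFP library. TFF2 (42346357 to 42351128, minus strand), made by gastric neck and duodenal gland cells, was at 0.0395 FPKM in the knockdown library and listed at the floor in the shGFP library, so it gets no fold. The cluster thus held 1 gene past 1.5-fold, 1 close to a ratio of 1 and 1 hardly detected. ESR1, the oestrogen receptor, stood at 0.84 FPKM in both libraries.

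SPINK1 (chromosome 5, 147824568 to 147831786, minus strand), the pancreatic secretory trypsin inhibitor, was the most abundant of the 10 genes after LYZ and had the largest log2 ratio among them. Its level was 47.6 FPKM in the knockdown library and 21.6 FPKM in the shGFP library, a ratio of 2.21 and a log2 ratio of 1.11, which ranked 145 of 14209 symbols. LYZ, AGR2, REG3A and TFF3 ranked 202, 249, 270 and 523 on the same scale, and LCN2, MUC13 and TFF1 ranked 1139, 2710 and 8146. The ratio of LYZ to SPINK1 was 49.4 in the knockdown library and 55.7 in the shGFP library, so both kept nearly the same proportion.

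AGR2 and MUC13, an isomerase for mucins and a membrane mucin, had unlike ratios in these libraries. With 1 library in each group, whether they differ from each other was not tested. AGR2 (chromosome 7, 16791811 to 16833433, minus strand), which helps mucins fold, stood at 7.57 FPKM in the knockdown library and 3.66 FPKM in the shGFP library, a ratio of 2.07. MUC13 (chromosome 3, 124905442 to 124953819, minus strand), the transmembrane mucin, stood at 3.47 FPKM in the knockdown and 2.76 FPKM in the shGFP library, a ratio of 1.26. Ordered by level, the genes ran LYZ, SPINK1, AGR2, LCN2, TFF3, MUC13, REG3A, TFF1, REG1A and TFF2 in the knockdown library. In the shGFP library 3 adjacent pairs stood the other way round: LCN2 above AGR2, MUC13 above TFF3 and TFF1 above REG3A. Without replicates it cannot be said which neighbours in this order differ beyond their spread.

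**Figure D2:**
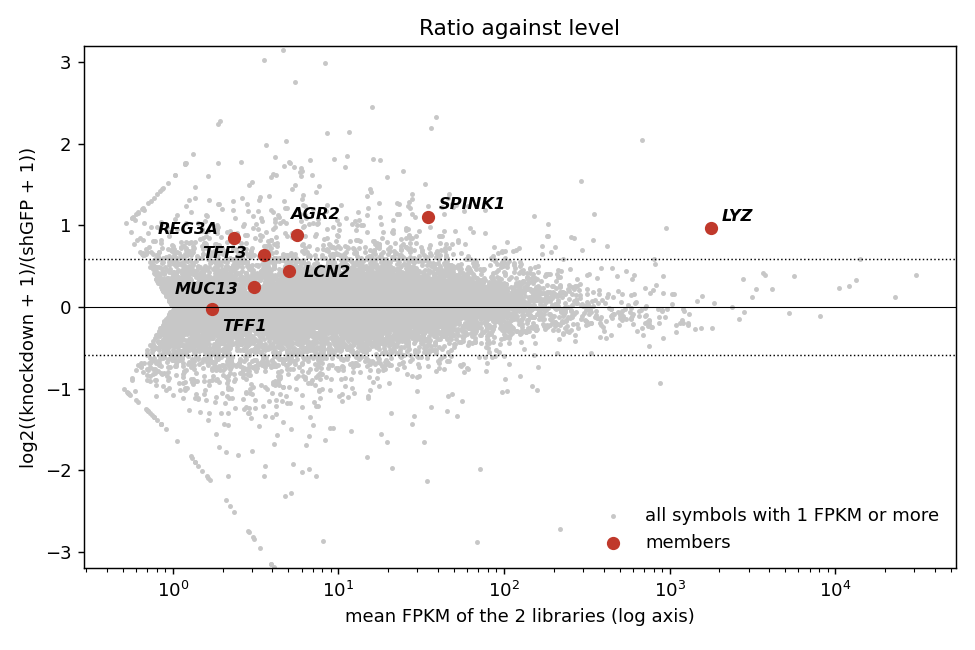
Log2 ratio of knockdown to shGFP (pseudocount 1 FPKM) against the mean FPKM of both libraries (log axis) for all 14209 symbols measured (grey) and the 8 measured genes (red); dotted lines mark 1.5-fold, and 20 symbols lie outside the plotted range. Genes of a few FPKM scatter widely, and AGR2, REG3A and TFF3 lie there, whereas LYZ, with a log2 ratio of 0.97, lies where symbols are few.

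In the authors' deposited table, whose p-values and q-values compare these libraries and not the conditions, 0 of the 10 genes were marked significant. That table marked 0.0223% of its genes, 13 of 58220. The smallest p among the 10 genes in the authors' deposited table was that of LYZ, 0.02945, with a q of 0.601, and the q of the others there ran up to 1.

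Start-site sequence was examined for the 6 genes with an entry in the RefSeq promoter table (build GRCh38.p14). Of the 8 measured genes, 3 had a plain ratio above 2 (SPINK1, AGR2 and REG3A), as had 2.63% of all measured symbols above the floor in both libraries, and all 3 have an entry, as do MUC13, LCN2 and REG1A, the neighbour of REG3A that was not counted. The 250 bases before each start are shown for those 3 and REG1A, 5′ to 3′ on the gene's strand. Capitals mark matches to 7 short motifs, searched on both strands. TATAAA stands for the TATA box, TTCNNNGAA for STAT factors, TTGCNNAA for C/EBP factors, AGATAA for the GATA family and TGANTCA for AP-1. TGTTTNC is a loose form of the forkhead core, in which the N is A or G. GACGTG is a core of unfolded protein response factors. It does not match TGACGTCA, the full site of CREB factors. The windows are chr5:147831672-147831921 (minus strand) for SPINK1, chr7:16805000-16805249 (minus) for AGR2, chr2:79159754-79160003 (minus) for REG3A and chr2:79120238-79120487 (plus) for REG1A. The starts are those of RefSeq, and only that of REG3A meets the edge of the deposited gene. The AGR2 window lies inside the deposited gene, as do the MUC13 and LCN2 windows, which are not shown. The SPINK1 and REG1A windows overlap their deposited genes in part.
SPINK1: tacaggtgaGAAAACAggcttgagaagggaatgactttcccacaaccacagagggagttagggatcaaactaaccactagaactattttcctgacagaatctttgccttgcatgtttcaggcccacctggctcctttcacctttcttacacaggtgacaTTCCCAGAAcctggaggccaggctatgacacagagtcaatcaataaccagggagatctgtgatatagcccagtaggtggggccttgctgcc
AGR2: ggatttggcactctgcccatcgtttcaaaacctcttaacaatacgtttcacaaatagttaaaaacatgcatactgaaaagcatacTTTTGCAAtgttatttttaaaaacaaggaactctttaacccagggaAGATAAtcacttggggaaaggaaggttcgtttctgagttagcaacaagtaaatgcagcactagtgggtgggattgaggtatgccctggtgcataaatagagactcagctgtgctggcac
REG3A: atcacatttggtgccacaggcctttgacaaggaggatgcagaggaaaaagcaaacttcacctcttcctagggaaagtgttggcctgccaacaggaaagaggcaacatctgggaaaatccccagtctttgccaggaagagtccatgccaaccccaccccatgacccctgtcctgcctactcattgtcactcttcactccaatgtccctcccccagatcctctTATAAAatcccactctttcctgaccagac
REG1A: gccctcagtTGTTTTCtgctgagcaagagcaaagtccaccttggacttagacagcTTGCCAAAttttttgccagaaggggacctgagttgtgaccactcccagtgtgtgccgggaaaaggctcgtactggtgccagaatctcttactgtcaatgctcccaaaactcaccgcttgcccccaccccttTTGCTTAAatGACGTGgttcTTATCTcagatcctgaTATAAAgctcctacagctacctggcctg

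The 4 windows shared no single motif. SPINK1 held a STAT match, TTCCCAGAA, at bases 91 to 83 before the start, and TTCNNNGAA occurs in 6.57% of the 35116 windows of this length in the table. REG3A and REG1A both held TATAAA, at bases 29 to 24 and 28 to 23 before their starts, a motif found in 10.7% of all windows. AGR2 and REG1A both held AGATAA (9.17% of all windows) and TTGCNNAA (9.05%), in either orientation. Of all 6 windows, 3 held TTGCNNAA (REG1A, AGR2 and LCN2) and 2 held TGANTCA (MUC13 and LCN2, against 6.57% of all windows). The loose TGTTTNC lay in 3 (REG1A, SPINK1 and LCN2, against 15.5%). Its N was T or C in each, so none of the 3 matches the stricter forkhead core. GACGTG lay in REG1A alone of the 6 and in 6.50% of all windows. The MUC13 window held TGACGTCA, which was not among the motifs searched. No matches within these 6 windows overlapped, and a match describes letters in the window, not a site in use.

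Genes beside the members mostly lay within 1.5-fold, as did most symbols. Within 200 kb of a member, 29 other genes were measured, with a median log2 ratio of 0.14. Of these, 2 were higher by 1.5-fold or more and 1 lower by 1.5-fold or more. Over all symbols measured, 4.55% were higher and 4.48% lower by as much. Counts this small cannot be told apart from those shares and are not read as a trait of the neighbours. Around LYZ, the chromatin reader YEATS4, 5.469 kb downstream, stood at 32.6 FPKM in the knockdown and 37.4 FPKM in the shGFP library. The RNA-processing factor CPSF6 stood at 40.6 FPKM in the knockdown and 42.9 FPKM in the shGFP library, and the noncoding AC020656.2 at 18.2 FPKM in the knockdown and 19.4 FPKM in the shGFP library. The adaptor FRS2 stood at 13.5 FPKM in the knockdown and 12.2 FPKM in the shGFP library, so all 4 measured neighbours of LYZ lay within 1.5-fold. AC020656.1, which overlaps LYZ on the opposite strand, was at 0.365 FPKM in the knockdown and 0.0949 FPKM in the shGFP library. The libraries came from a strand-specific kit, but the sources used here do not give the strand setting used in counting, so these few fragments cannot be told apart from LYZ reads.

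Beside the trefoil cluster, the membrane serine protease TMPRSS3, 5.296 kb upstream of TFF1, stood at 3.46 FPKM in the knockdown and 1.41 FPKM in the shGFP library, a ratio of 2.45. SLC37A1, a solute carrier farther upstream, stood at 1.42 FPKM in the knockdown and 1.15 FPKM in the shGFP library. TFF1, at a ratio of 0.97, thus lay between neighbours that were higher on its upstream side (TMPRSS3) and farther downstream (TFF3, 46.631 kb away). Beside the REG cluster, the catenin CTNNA2 stood at 1.36 FPKM in the knockdown and 0.342 FPKM in the shGFP library; it met the FPKM minimum through the knockdown library alone. TSPAN13, a tetraspanin 7.275 kb from AGR2, stood at 27.0 FPKM in the knockdown and 18.4 FPKM in the shGFP library, and AGR3, the AGR2 relative next to it, at 0.610 FPKM in the knockdown and 0.507 FPKM in the shGFP library. BZW2 and ANKMY2, farther from AGR2, had ratios of 1.07 and 0.969, and SPINK5, the measured neighbour of SPINK1, had a ratio of 0.983. Near LCN2 the endocytic GTPase DNM1 was lower, at 12.5 FPKM in the knockdown and 20.9 FPKM in the shGFP library, and the other 12 measured genes there lay between -0.10 and 0.33 in log2 ratio. These were FAM102A, NAIF1, SLC25A25, SLC25A25-AS1, PTGES2, C9orf16, CIZ1, GOLGA2, SWI5, TRUB2, COQ4 and SLC27A4. The 5 measured genes near MUC13 lay within 1.5-fold on the log2(FPKM + 1) scale, with ITGB5, 4.024 kb away, at 29.1 FPKM in the knockdown and 25.7 FPKM in the shGFP library. The others there were KALRN, UMPS, HEG1 and SLC12A8, with ratios of 1.58, 1.004, 0.731 and 0.723 in that order.

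**Figure D3:**
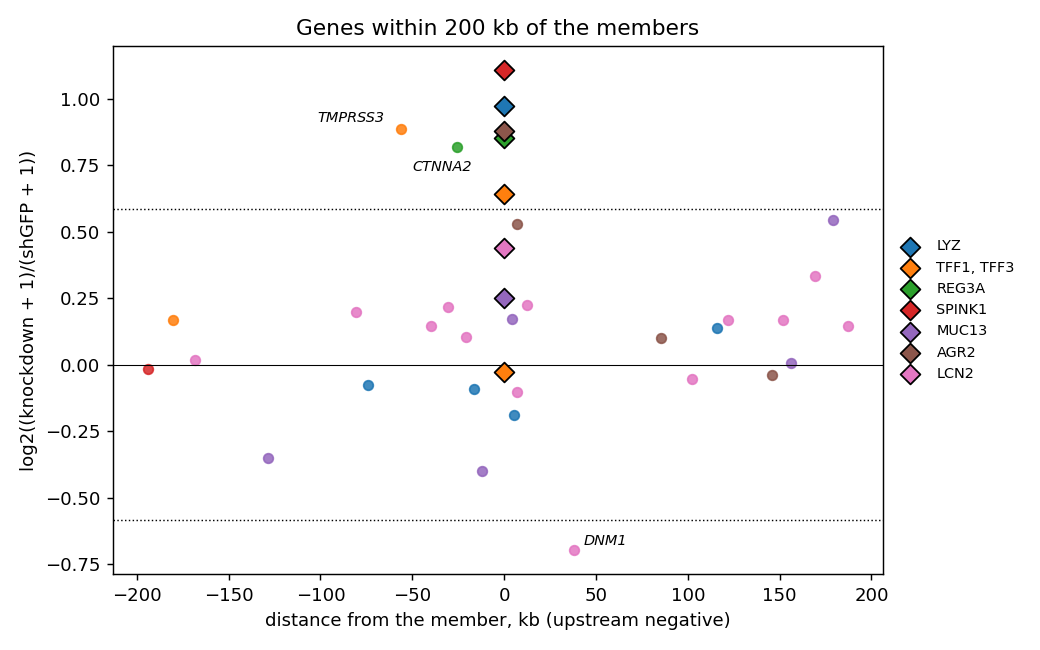
Log2 ratio of knockdown to shGFP (pseudocount 1 FPKM) for the measured genes within 200 kb of a member (circles, coloured by locus), against their distance in kb with upstream negative; diamonds at 0 are the members, distances in the trefoil cluster run from TFF3, and dotted lines mark 1.5-fold. TMPRSS3, CTNNA2 and DNM1 are the labelled neighbours past 1.5-fold, and the genes around LYZ lie between -0.19 and 0.14.

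Relatives from the same protein families were mostly under 1 FPKM, and 9 were listed at the floor in both libraries. Of 23 such genes, 5 were measured, of which 0 were higher by 1.5-fold or more and 1 lower by 1.5-fold or more, with a median log2 ratio of 0.00. The lower one was LCN10, a lipocalin at 0.440 FPKM in the knockdown and 1.92 FPKM in the shGFP library, which met the minimum through the shGFP library alone. TXNDC12, an endoplasmic reticulum thioredoxin related to AGR2, stood at 36.18 FPKM in the knockdown and 36.08 FPKM in the shGFP library, and LCN12 at 1.98 FPKM in the knockdown and 1.55 FPKM in the shGFP library. Of 14 other mucins, MUC15 and MUC1 were measured. MUC15 stood at 52.1 FPKM in the knockdown and 64.4 FPKM in the shGFP library, and MUC1 at 5.09 FPKM in the knockdown and 3.99 FPKM in the shGFP library. The secreted gel-forming mucins MUC2, MUC5AC and MUC6 were listed at the floor in both libraries.

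Markers of gut and pancreatic secretory cell types mostly stayed under 1 FPKM. Of 19 genes of goblet, Paneth and gastric mucous cells, 3 were measured, 1 of them higher by 1.5-fold or more, and the Paneth defensins DEFA5 and DEFA6 and the gastric GKN1 were listed at the floor in both libraries. The higher one was GCNT3, a mucin-type glycosyltransferase, at 16.4 FPKM in the knockdown and 10.6 FPKM in the shGFP library. PGC, the gastric protease precursor pepsinogen C, was abundant in both, at 281 FPKM in the knockdown and 271 FPKM in the shGFP library. Of 23 exocrine pancreas genes, 3 were measured and 0 were past 1.5-fold either way, with the carboxypeptidase CPB1 at 6.29 FPKM in the knockdown and 5.56 FPKM in the shGFP library and the trypsinogen PRSS3 at a ratio of 0.788.

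Genes of absorptive intestinal epithelium, several of which hepatocytes also express, held members that were higher and others at the floor. Of 25 listed, 11 were measured, with 6 higher by 1.5-fold or more, 1 lower by 1.5-fold or more and a median log2 ratio of 0.62. The lower one was TM4SF4, a liver and gut membrane protein, at 0.462 FPKM in the knockdown and 1.91 FPKM in the shGFP library, which met the minimum through the shGFP library alone. The adhesion protein CDH17 stood at 2.52 FPKM in the knockdown and 3.27 FPKM in the shGFP library, and the peptidase DPP4 at 21.7 FPKM in the knockdown and 24.1 FPKM in the shGFP library. The gut epithelial LGALS4, KRT20, SI and PHGR1 were listed at the floor in both libraries. Among the higher ones TM4SF5, a tetraspanin-like membrane protein, stood at 66.0 FPKM in the knockdown and 25.4 FPKM in the shGFP library, a ratio of 2.60. VIL1 (villin, the actin bundler of microvilli) stood at 85.2 FPKM in the knockdown and 44.6 FPKM in the shGFP library, and the surface peptidase ANPEP at 35.1 FPKM in the knockdown and 18.6 FPKM in the shGFP library. The lipid carrier FABP1 stood at 237 FPKM in the knockdown and 148 FPKM in the shGFP library, and the metalloprotease MEP1A at 13.3 FPKM in the knockdown and 8.27 FPKM in the shGFP library. The enterocyte median was 0.28 with a pseudocount of 5 FPKM and 0.08 with no FPKM minimum, over the genes above the floor in both libraries. It lay below the hepatocyte median in both settings (0.43 and 0.44). Having no minimum adds genes under 1 FPKM, whose ratios the pseudocount pulls towards 0. In the other alternatives the enterocyte median ran from 0.60 to 0.78, above the hepatocyte median (0.41 to 0.44). Hepatocyte markers had a median of 0.44 over 13 genes, with 5 higher by 1.5-fold or more and 0 lower, and were led by AFP, the fetal plasma protein, at 59.8 FPKM in the knockdown and 12.3 FPKM in the shGFP library. The others were TTR at 7.81 FPKM in the knockdown and 1.65 FPKM in the shGFP library, APOH at 438 FPKM in the knockdown and 247 FPKM in the shGFP library, KRT18 at 147 FPKM in the knockdown and 90.2 FPKM in the shGFP library, and SERPINA1 at 367 FPKM in the knockdown and 226 FPKM in the shGFP library.

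**Figure D4:**
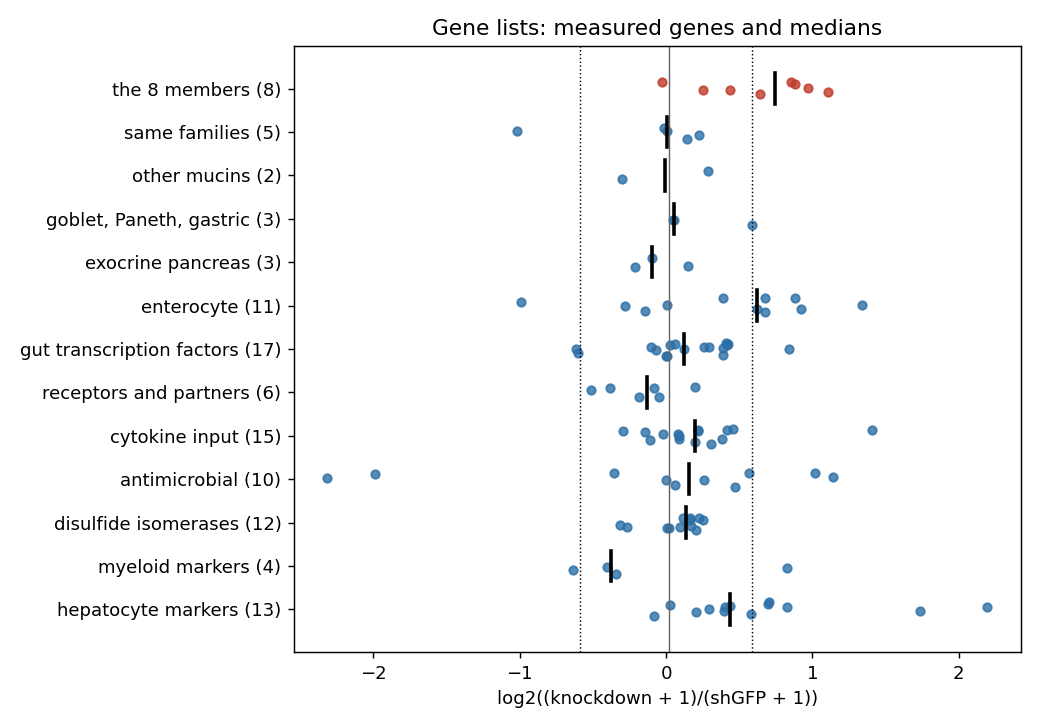
Log2 ratio of knockdown to shGFP (pseudocount 1 FPKM) of each measured gene in the 12 lists (blue) and of the 8 measured genes (red), with each list's median as a black bar, the number of genes in brackets, dotted lines at 1.5-fold and a grey line at the median of all symbols. The enterocyte median of 0.62 and the hepatocyte median of 0.44 lie to the right, the myeloid median of -0.37 to the left, and the other 9 lists have medians between -0.13 and 0.20.

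Transcription factors of gut and endoderm epithelium mostly lay within 1.5-fold, as did most symbols. Of 23 listed, 17 were measured, with 1 higher by 1.5-fold or more (5.88%) and 2 lower by 1.5-fold or more (11.8%). Over all symbols measured, 4.55% were higher and 4.48% lower by as much, and counts this small are not read as a trait of the list. The median log2 ratio was 0.12, with 13 genes above 0 and 4 below. XBP1, which drives secretory capacity in the unfolded protein response, stood at 339 FPKM in the knockdown and 189 FPKM in the shGFP library. KLF5, a factor of proliferating gut epithelium, stood at 78.9 FPKM in the knockdown and 120.3 FPKM in the shGFP library, and GATA6 at 4.66 FPKM in the knockdown and 7.66 FPKM in the shGFP library. Of the 15 protein disulfide isomerase relatives of AGR2 listed, 12 were measured and 0 were past 1.5-fold, with P4HB at 291 FPKM in the knockdown and 244 FPKM in the shGFP library and PDIA6 at 190 FPKM in the knockdown and 175 FPKM in the shGFP library.

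Signalling genes upstream and downstream of these proteins were mostly close. Of 16 cytokine receptors and factors that act on acute-phase and REG genes, 15 were measured and 1 was higher by 1.5-fold or more, with a median of 0.20. That gene was OSMR, the oncostatin M receptor, at 23.4 FPKM in the knockdown and 8.18 FPKM in the shGFP library. Of 12 receptors and partners reported for the members, 6 were measured and 0 were past 1.5-fold on the log2(FPKM + 1) scale, with a median of -0.13. By plain ratio of knockdown to shGFP, the low genes CXCR4 and LYPD3 were lower, at 0.584 and 0.575, and EGFR alone was higher, at 1.17. EXTL3, reported as a receptor of REG proteins, had a ratio of 0.872. DAG1, reported as a binding partner of AGR2, stood at 36.0 FPKM in the knockdown and 37.3 FPKM in the shGFP library.

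Other antimicrobial secretions went both ways. Of 26 listed, 10 were measured, with 2 higher by 1.5-fold or more, 2 lower by 1.5-fold or more and a median log2 ratio of 0.16. The higher ones were the ribonucleases RNASE4, at 38.6 FPKM in the knockdown and 17.01 FPKM in the shGFP library, and ANG (angiogenin), at 16.5 FPKM in the knockdown and 7.62 FPKM in the shGFP library. These genes overlap and share first exons, so the authors' counting could split reads between them. The lower ones were PLA2G2A, a bactericidal phospholipase, at 28.4 FPKM in the knockdown and 116 FPKM in the shGFP library, and HAMP (hepcidin), at 0.927 FPKM in the knockdown and 8.60 FPKM in the shGFP library. Thus the secreted antimicrobial genes of this line held both lysozyme, 1.96-fold higher, and PLA2G2A, 4.07-fold lower in the knockdown library.

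LYZ and LCN2 are also products of myeloid cells, so 17 myeloid markers were read beside them. They summed to 33.1 FPKM in the knockdown library and 41.1 FPKM in the shGFP library, against 2353 FPKM of LYZ in the knockdown and 1199.7 FPKM in the shGFP library. Of the 17, 4 were measured, 1 higher by 1.5-fold or more (CD14, a lipopolysaccharide co-receptor that hepatocytes also make) and 1 lower (FCER1G). CD14 stood at 5.33 FPKM in the knockdown and 2.57 FPKM in the shGFP library. FCER1G, an immune receptor adaptor, stood at 8.56 FPKM in the knockdown and 13.9 FPKM in the shGFP library. The most abundant marker, CD68, stood at 15.4 FPKM in the knockdown and 19.7 FPKM in the shGFP library. LAPTM5 stood at 1.16 FPKM in the knockdown and 1.86 FPKM in the shGFP library. Thus 3 of the 4 measured markers had a log2 ratio below 0. The pan-leukocyte PTPRC was at 0.224 FPKM in the knockdown and 0.149 FPKM in the shGFP library, and AIF1 and LST1 were listed at the floor in both. In bulk RNA, more cells that express a gene and more RNA per cell cannot be told apart.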

How the data were processed

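RNA from 1 NEIL3 knockdown and 1 shGFP library of Huh7 cells was sequenced with a strand-specific kit, per the labels' protocols. Cufflinks 2.2.1 with Cuffdiff, after Trimmomatic 0.36, HISAT2 2.1.0 and SAMtools 1.2, was used on GRCh38.p10, per the submitters' processing notes, and the sources used here give no annotation release, filter or strand setting. The authors deposited FPKM values per gene, a ratio and log2 ratio of knockdown over shGFP without a pseudocount, and p-values and q-values for the comparison of these libraries. Fragment totals are unknown, so no counting interval is given. Relative depth came from 6118 genes under 0.3 FPKM and above the floor in both libraries: 667 had ratios within 2% of 1.29 and 108 within 2% of 1, as 1 fragment in each library would give. Reading it as a ratio of fragment numbers assumes that FPKM was scaled to the mapped total.

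The row with the highest mean FPKM was kept for each symbol. Log2 ratios were computed from FPKM with a pseudocount of 1, with Python 3.11.15 and pandas 2.3.3. The 2-fold counting was run on shGFP values of higher genes given set changes without noise. That run checks the code only. FPKM is no count, and there is 1 library per group, so no test was run. Coordinates are the deposited ones; all 10 members have the same in GENCODE 29. The members, the 12 lists, the motifs and the rule for named genes were chosen with earlier results of these data known. That rule names all members, neighbours of 1 FPKM or more, and list genes 1.5-fold or more apart with 5 FPKM or more in a library, or else the 2 most abundant; other genes were named after their values were seen.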

Additional observations from a re-analysis of the deposited data

How the results depend on the processing

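Of 210 values recomputed under 7 alternatives, 194 stayed close to those reported and 16 moved further. Close means within 1.5 times for a count and within 1.5-fold, once unlogged, for log2 ratios and their medians. Part of the 194 was fixed in advance. The log2 ratio of a member does not depend on the FPKM minimum or, with 1 row per member, on summing rows. None of the members past 1.5-fold turned its direction, but a pseudocount cannot turn the direction of a ratio, so nothing is read from that. With a pseudocount of 0.1 FPKM, 3 members were higher by 2-fold or more in place of 1, REG1A had a log2 ratio of 1.40 in place of 0.34, and over all symbols 1026 were lower by 1.5-fold (637 as reported), 372 higher by 2-fold (190) and 402 lower by 2-fold (182). With a pseudocount of 5 FPKM, 2 members were higher by 1.5-fold and 0 by 2-fold, beside 247 symbols 1.5-fold higher (647 as reported), 177 1.5-fold lower, 57 2-fold higher and 47 2-fold lower. With a minimum of 5 FPKM, 4 members were counted and 3 were higher by 1.5-fold or more, beside 397 symbols 1.5-fold higher, 320 1.5-fold lower, 126 2-fold higher and 96 2-fold lower; fewer genes are counted by construction. The median log2 ratio of the members ran from 0.36 to 0.92 and the log2 ratio of LYZ from 0.94 to 0.97 over all settings. Rescaling without mitochondrial genes shifted log2 ratios by -0.03 before the pseudocount, which makes the shift of low genes smaller. No paired analysis was possible because each group has 1 library and no result comes from a test. REG1A and TFF2 lie too low for a ratio to be relied on; fragment totals are unknown.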
